A study of Mus musculus with 10 samples.

Results

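FoxO factors are forkhead transcription factors, and the genes described here are the factors Foxo1, Foxo3 and Foxo4 with 6 genes known as FoxO targets, namely Irs2, Pdk4, Ccng2, Bcl6, Txnip and Fbxo32. They were taken from the table by gene symbol. Of these 9 genes, 8 were measured among the 12803 genes of the table, and Foxo4 was not analysed here. Muscle stem cells, also called satellite cells, were sorted from limb muscles of young male C57BL/6 mice as CD45-, CD31-, Sca1- and VCAM+ cells. RNA was profiled directly after sorting (fresh, 0 h, n = 3), after 24 h of culture with DMSO, the solvent (vehicle, n = 3), and after 24 h of culture with 40 µM Tubastatin A in DMSO (n = 4). All cultures had 10% horse serum, and no genetic change was made in any group. Tubastatin A inhibits HDAC6, a deacetylase of tubulin. Each library came from the cells of a single animal.

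FoxO proteins are held in check by insulin and growth factor signalling: the kinase AKT phosphorylates them, 14-3-3 proteins bind them, and they leave the nucleus. When that signal is weak they enter the nucleus and switch on genes for cell cycle arrest, protein and organelle breakdown, oxidative defence and the use of fat in place of glucose. In muscle stem cells FoxO factors are known to be needed for quiescence, and in muscle fibres they drive atrophy genes. The activity of these proteins is set largely by phosphorylation and location, which RNA levels do not measure.

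Levels are RPKM, which are reads scaled by the authors for gene length and library size, so they may be set side by side between genes. A change is the difference of group means of log2(RPKM + 1), and SE is its standard error. The adjusted p of a change is from limma over 12803 genes, and genes with an adjusted p under 0.05 are called. The table held 37558861 to 55328771 reads per library. In a gene of 1 kb, 1 read was worth 0.0160 to 0.0339 RPKM. Among fresh libraries replicate 1 stood apart, with 12 immediate early genes of cell stress and dissociation summing to 33184 RPKM against 19712 and 16805 RPKM. They summed to 690.4 to 758.3 RPKM in vehicle and 1385 to 1679 RPKM in Tubastatin A libraries. Tubastatin A replicate 2 stood apart in 13 measured markers of mature muscle fibres, with a sum of 431.9 RPKM against 16.3 to 18.9 RPKM in the other Tubastatin A libraries. These markers summed to 101.6 to 139.8 RPKM in fresh and 68.9 to 95.7 RPKM in vehicle libraries, above those 3 Tubastatin A libraries. Most of the vehicle sum was Eno3, at 55.2 ± 9.12 RPKM (SD, n = 3). Defining markers of muscle stem cells, Pax7 and Myf5, stood at 22.4 ± 9.48 and 248.4 ± 30.6 RPKM in fresh cells (SD, n = 3). Their means were 4.73 and 34.1 RPKM in vehicle and 2.14 and 6.37 RPKM in Tubastatin A cells. The 10 muscle stem cell markers summed to 2812 to 3063 RPKM in fresh, 614.8 to 628.4 RPKM in vehicle and 467.8 to 545.9 RPKM in Tubastatin A libraries. In the cultures the largest parts of this sum were Sdc4 (means 169.0 RPKM in vehicle and 164.7 RPKM with Tubastatin A) and Itgb1 (156.0 and 223.0 RPKM). The 10 endothelial markers summed to 53.6 to 72.1 RPKM in fresh, 3.39 to 4.69 RPKM in vehicle and 6.36 to 7.17 RPKM in Tubastatin A libraries. The higher sum with Tubastatin A than with vehicle was due to Tek (means 4.21 against 0.879 RPKM), while Egfl7 was lower (0.990 against 1.73 RPKM). The 7 measured markers of fibro-adipogenic progenitors summed to 422.2 to 814.8, 39.8 to 47.4 and 9.02 to 16.5 RPKM, and 8 pericyte and smooth muscle markers to 199.9 to 246.1, 175.4 to 240.9 and 11.9 to 62.5 RPKM. Both sums were mostly 1 gene, Col3a1 (means 407.4, 38.0 and 6.50 RPKM) and Acta2 (211.8, 211.9 and 23.0 RPKM). Other markers could move otherwise, such as Col1a1 (28.2, 0.416 and 1.87 RPKM) and Rgs5 (7.69, 0.0599 and 0.109 RPKM). Counts of markers that rose and fell are given further below. The 3 measured immune markers summed to 10.2 to 21.6, 0.731 to 0.946 and 2.53 to 4.03 RPKM. Only Cd68 of them was called between the cultures, with means of 0.759 RPKM in vehicle and 2.96 RPKM in Tubastatin A cells. No measured marker stood at exactly 0, but some of the lowest values were identical in libraries of different depth. Abcc9 was 0.00622 RPKM in vehicle replicate 3 and in Tubastatin A replicates 1 and 4. Myh11 was 0.00134 RPKM in vehicle replicates 1 and 2. A value just above 0 thus need not mean that a marker was detected. In such bulk RNA, fewer cells of a type and less RNA per cell cannot be told apart.

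Promoter windows of 250 bases before to 50 bases after the RefSeq start site (build GRCm38.p6) were matched for 7 of the 8 measured genes, all but Fbxo32, and searched on both strands for 2 short FoxO motifs. The motif GTAAACA, read as TGTTTAC on the other strand, is in 3.65% of all 32851 windows of this length. The motif CAAAACA, read as TGTTTTG on the other strand, is in 6.28% of them. At least 1 of them was found for 3 genes, Txnip, Ccng2 and Irs2. The stretches that hold a match are shown 5′ to 3′ on the strand of the gene, with the match in capitals. For Txnip (chr3:96557707-96557956, plus strand) and Irs2 (chr8:11008930-11009179, minus strand) all 250 bases before the start are given, and the match begins 121 and 37 bases before it.
Txnip: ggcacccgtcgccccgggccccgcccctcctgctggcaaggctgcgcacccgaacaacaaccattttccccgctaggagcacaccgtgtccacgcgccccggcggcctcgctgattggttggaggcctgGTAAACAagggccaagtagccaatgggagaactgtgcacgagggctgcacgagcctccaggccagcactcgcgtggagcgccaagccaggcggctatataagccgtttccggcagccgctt
Irs2: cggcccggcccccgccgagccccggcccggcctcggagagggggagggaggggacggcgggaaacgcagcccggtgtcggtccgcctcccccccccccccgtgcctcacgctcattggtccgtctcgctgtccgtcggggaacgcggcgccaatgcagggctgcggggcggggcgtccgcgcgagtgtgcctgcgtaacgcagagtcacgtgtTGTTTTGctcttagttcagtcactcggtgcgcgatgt
Ccng2: gggcgtcgcagactCAAAACAaaaacaagg

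For Ccng2 the last 30 bases before the RefSeq start are given (chr5:93267543-93267572, plus strand), with the match 16 bases before it. This start lies inside the gene position given for Ccng2 below, which is from another annotation. The RefSeq start of Irs2 lies outside the position given for Irs2. A match is a run of letters and not a measured binding site. Neither motif is in the windows of Foxo1, Foxo3, Pdk4 or Bcl6, which says nothing of sites elsewhere in these genes.

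Culture with vehicle lowered every measured FoxO gene, and Tubastatin A raised most of them again. From fresh to vehicle all 8 fell, with a median change of -1.98 beside -0.03 over all genes. Of all 12803 genes, 67.0% were called in this comparison, 35.0% lower and 32.0% higher. The fresh and vehicle libraries did not overlap for any of the 8, as for 67.6% of all genes. With Tubastatin A against vehicle 6 rose, 1 fell and 1 did not pass, with a median of 0.72 beside 0.02 over all genes. Here 59.3% of all genes were called, 29.6% higher and 29.7% lower, and libraries of both groups did not overlap for 68.6% of all genes and for 7 of the 8. With Tubastatin A against fresh cells 7 fell and 1 rose, with a median of -1.52 beside -0.03. In this comparison 64.9% of all genes were called, 35.2% lower and 29.8% higher, and libraries did not overlap for 61.3% of all genes and for 7 of the 8. These 3 comparisons share libraries and are not independent of each other.

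**Figure D1:**
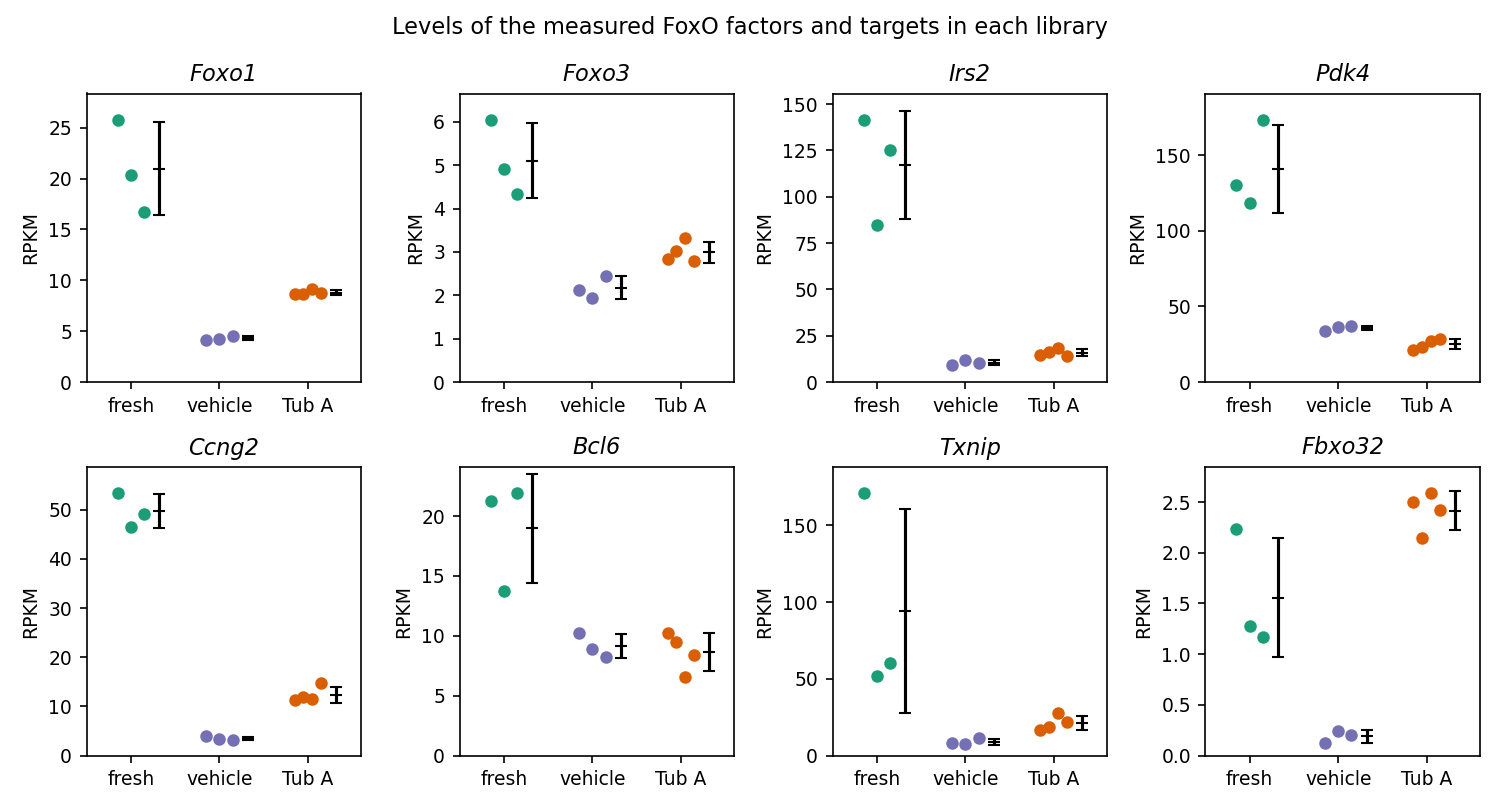
Levels (RPKM, linear axes from 0) of the 8 measured genes in each library; points are libraries of fresh, vehicle and Tubastatin A (Tub A) cells, in the order of their replicate numbers, and bars are mean and SD. Fresh libraries lie above vehicle libraries in every panel, and for Fbxo32 the 4 Tubastatin A libraries, at 2.15 to 2.59 RPKM, reach above the fresh mean.

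How far libraries are scaled matters for these counts. Fresh libraries held more reads in the table, relative to the size the authors scaled by, than cultured ones. Scaling by the reads in the table instead moved the median of all genes to 0.34 in vehicle against fresh and 0.40 in Tubastatin A against fresh, with 6364 genes then higher and 2906 lower, and 6913 and 2593, in place of 4096 and 4484, and 3811 and 4503. With each library at the same sum of RPKM these splits were 6280 and 2892, and 7004 and 2481. Under both scalings 7 of the 8 genes still fell in vehicle against fresh, all but Bcl6, and 5 fell and 1 rose in Tubastatin A against fresh.

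Foxo1 (chr3:52268336-52353221) was the more abundant factor. It stood at 25.8, 20.4 and 16.7 RPKM in the fresh, 4.16, 4.24 and 4.54 RPKM in the vehicle, and 8.62, 8.67, 9.18 and 8.75 RPKM in the Tubastatin A libraries. The groups were fully apart, with Tubastatin A cells between vehicle and fresh cells. Foxo1 fell with a log2 change of -2.03 in vehicle against fresh (SE 0.14, adjusted p = 1.3e-07), which is 4.86-fold in mean RPKM. It rose by 0.88 with Tubastatin A against vehicle (SE 0.13, adjusted p = 1.2e-04), or 2.04-fold, and remained below fresh cells, with a log2 change of -1.14 (SE 0.13, adjusted p = 1.1e-05). With reads in the table as the scale, that last change was -0.50.

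Foxo3 (chr10:42181841-42276755), the factor long tied to stem cell maintenance, was lower and moved less. Its levels were 6.05, 4.92 and 4.35 RPKM in fresh, 2.13, 1.94 and 2.45 RPKM in vehicle, and 2.84, 3.01, 3.32 and 2.79 RPKM in Tubastatin A libraries. The groups again did not overlap, but the gap from vehicle to Tubastatin A was narrow. Foxo3 fell with a log2 change of -0.94 in vehicle against fresh (SE 0.13, adjusted p = 5.4e-05) and rose by 0.33 with Tubastatin A against vehicle (SE 0.12, adjusted p = 0.036), 1.37-fold in mean RPKM. This rise did not pass without vehicle replicate 1 or 2 or without any 1 of the Tubastatin A libraries, at 0.28 to 0.35 (adjusted p = 0.051 to 0.14). It did not pass with a pseudocount of 5 RPKM (0.16, adjusted p = 0.056) or with a replicate block (0.35, adjusted p = 0.070) either. The block in effect leaves out Tubastatin A replicate 4, since no other group has a replicate 4. Against fresh cells Foxo3 was lower with Tubastatin A, at -0.61 (SE 0.12, adjusted p = 0.0010), but at -0.06 (adjusted p = 0.70) when scaled by reads in the table.

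The mix of factors shifted with culture, and a share within a library does not depend on how libraries are scaled. Foxo1 made up 81.0%, 80.5% and 79.4% of the summed RPKM of Foxo1 and Foxo3 in fresh, 66.1%, 68.6% and 64.9% in vehicle, and 75.3%, 74.2%, 73.5% and 75.8% in Tubastatin A libraries. In this share of Foxo1 and Foxo3 alone the groups did not overlap, and Tubastatin A libraries lay between the others. With Foxo6, described next, counted in, the Foxo1 shares of fresh and Tubastatin A libraries overlapped. The ratio of Foxo1 to Foxo3 ran from 3.85 to 4.26 in fresh, 1.85 to 2.19 in vehicle and 2.77 to 3.13 in Tubastatin A libraries. No test was made on these shares.

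Foxo6, a family member best known from brain, is not among the 9 genes but was measured. It stood at 13.6, 5.27 and 8.89 RPKM in fresh, 3.27, 3.51 and 3.29 RPKM in vehicle, and 4.69, 4.27, 3.83 and 3.57 RPKM in Tubastatin A libraries. It fell with a log2 change of -1.15 in vehicle against fresh (SE 0.24, adjusted p = 0.0010), and its change of 0.22 with Tubastatin A against vehicle did not pass (SE 0.22, adjusted p = 0.42), although the libraries of both groups did not overlap. Of the summed RPKM of the 3 measured factors, Foxo6 held 17.3% to 30.0% in fresh, 32.0% to 36.2% in vehicle and 25.7% ± 2.68 in Tubastatin A libraries (SD, n = 4). The low end of the fresh range was replicate 2.

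**Figure D2:**
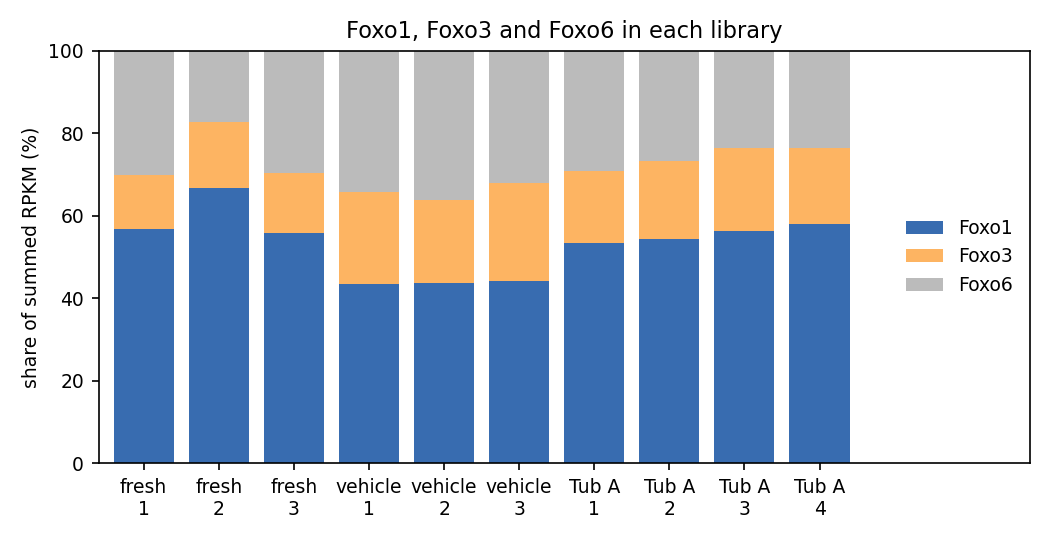
Share (%) of Foxo1, Foxo3 and Foxo6 in their summed RPKM, with a bar for each library, named by group (Tub A for Tubastatin A) and replicate. Foxo1 holds 55.8% to 66.6% in fresh, 43.5% to 44.1% in vehicle and 53.4% to 57.9% in Tubastatin A libraries, so fresh and Tubastatin A libraries overlap.

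Irs2 (chr8:10984681-11008458) encodes an adaptor that carries the insulin signal from the receptor to PI3-kinase, and its gene is a FoxO target that feeds back on the same pathway. It stood at 141.6, 85.0 and 125.2 RPKM in fresh, 8.99, 11.9 and 10.5 RPKM in vehicle, and 14.8, 16.5, 18.4 and 14.0 RPKM in Tubastatin A libraries. Both kinds of culture thus lay far below fresh cells. The change was -3.34 in vehicle against fresh (SE 0.18, adjusted p = 1.8e-08), or 11.2-fold, and -2.78 in Tubastatin A against fresh (SE 0.17, adjusted p = 5.9e-08), or 7.37-fold. Between the cultures Irs2 rose by 0.56 with Tubastatin A (SE 0.17, adjusted p = 0.013). Without vehicle replicate 1, the lowest library, that rise was 0.47 and did not pass (adjusted p = 0.063).

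Ccng2 (chr5:93267257-93276231) encodes cyclin G2, an unusual cyclin that slows the cell cycle. It had the largest fall of the 8 from fresh to vehicle. Its levels were 53.4, 46.6 and 49.2 RPKM in fresh, 3.90, 3.32 and 3.27 RPKM in vehicle, and 11.4, 11.9, 11.5 and 14.8 RPKM in Tubastatin A libraries. Replicates were close together in each group, except for Tubastatin A replicate 4 at 14.8 RPKM, and no groups overlapped. Ccng2 fell with a log2 change of -3.50 in vehicle against fresh (SE 0.12, adjusted p = 6.7e-10), or 14.2-fold in mean RPKM. It rose by 1.57 with Tubastatin A (SE 0.12, adjusted p = 4.4e-07), or 3.55-fold, to a level still 4.01-fold under fresh cells (log2 change -1.92, SE 0.12, adjusted p = 5.3e-08). Without Tubastatin A replicate 4 the rise over vehicle was 3.32-fold in mean RPKM.

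Bcl6 (chr16:23965052-23988852) encodes a transcriptional repressor. Levels were 21.3, 13.8 and 21.9 RPKM in fresh, 10.3, 8.92 and 8.24 RPKM in vehicle, and 10.3, 9.47, 6.59 and 8.36 RPKM in Tubastatin A libraries. Libraries of both cultures overlapped, and fresh cells lay above them. Bcl6 fell with a log2 change of -0.96 in vehicle against fresh (SE 0.19, adjusted p = 7.9e-04) and -1.03 in Tubastatin A against fresh (SE 0.18, adjusted p = 2.9e-04). Scaled by reads in the table these were -0.39 and -0.40 and did not pass (adjusted p = 0.074 and 0.053). Between the cultures the change was -0.08, with a 95% interval from -0.47 to 0.31 (adjusted p = 0.73). Of the 8 genes this was the only one for which Tubastatin A against vehicle did not pass.

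Txnip (chr3:96557957-96561883) encodes an inhibitor of thioredoxin that also limits glucose uptake. It stood at 171.0, 52.0 and 60.2 RPKM in fresh, 8.04, 7.87 and 11.3 RPKM in vehicle, and 17.0, 18.9, 27.6 and 21.7 RPKM in Tubastatin A libraries. Fresh replicate 1, which also had the highest sum of immediate early genes, was far above the other fresh libraries; the part of these genes in the level of Txnip was not tested. Txnip fell with a log2 change of -3.05 in vehicle against fresh (SE 0.36, adjusted p = 1.2e-05), or 10.4-fold in mean RPKM, and 6.19-fold without fresh replicate 1 (log2 change -2.52). It rose by 1.14 with Tubastatin A against vehicle (SE 0.34, adjusted p = 0.012), or 2.35-fold, and was 4.43-fold lower than in fresh cells (log2 change -1.91, SE 0.34, adjusted p = 3.5e-04), or 2.64-fold without fresh replicate 1.

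Pdk4 (chr6:5483351-5496309), which encodes a kinase that shuts off pyruvate dehydrogenase and so spares glucose, went a way of its own. Its mean was the highest of the 8 genes in all 3 groups, although its libraries overlapped those of the next gene in fresh and Tubastatin A cells. It stood at 130.4, 118.1 and 173.4 RPKM in fresh, 33.9, 36.5 and 36.9 RPKM in vehicle, and 21.4, 23.0, 27.3 and 28.8 RPKM in Tubastatin A libraries. Every Tubastatin A library lay below every vehicle library. Pdk4 fell with a log2 change of -1.93 in vehicle against fresh (SE 0.16, adjusted p = 5.2e-07) and by a further 0.50 with Tubastatin A against vehicle (SE 0.15, adjusted p = 0.011), or 1.42-fold in mean RPKM. With each library at the same sum of RPKM this last change was -0.38 and did not pass (adjusted p = 0.052). Against fresh cells Tubastatin A cells had 5.59-fold less Pdk4 (log2 change -2.43, SE 0.15, adjusted p = 5.4e-08).

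Fbxo32 (chr15:58175879-58214932) encodes atrogin-1, the ubiquitin ligase subunit known from wasting muscle, and was the only gene of the 8 that was higher with Tubastatin A than in fresh cells. It stood at 2.23, 1.28 and 1.17 RPKM in fresh, 0.123, 0.248 and 0.208 RPKM in vehicle, and 2.50, 2.15, 2.59 and 2.42 RPKM in Tubastatin A libraries. The vehicle values rest on 41 to 74 reads each, and those with Tubastatin A on 817 to 1088. In mean RPKM Fbxo32 was 8.09-fold lower in vehicle than in fresh cells and 12.5-fold higher with Tubastatin A than with vehicle, the largest ratio between the cultures among the 8. On the log2(RPKM + 1) scale, which understates changes at such low levels, these were -1.08 (SE 0.14, adjusted p = 3.0e-05) and 1.52 (SE 0.13, adjusted p = 1.8e-06). With a pseudocount of 0.1 RPKM they were -2.47 and 3.12. Against fresh cells Fbxo32 rose by 0.44 with Tubastatin A (SE 0.13, adjusted p = 0.012), or 1.55-fold. Fresh replicate 1, at 2.23 RPKM, overlapped the Tubastatin A libraries, and without fresh replicate 3 the rise was 0.33 and did not pass (adjusted p = 0.060). Tubastatin A replicate 2, with the high sum of muscle fibre markers, had the lowest Fbxo32 of its group, and without it the rise over vehicle was 1.56.

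**Figure D3:**
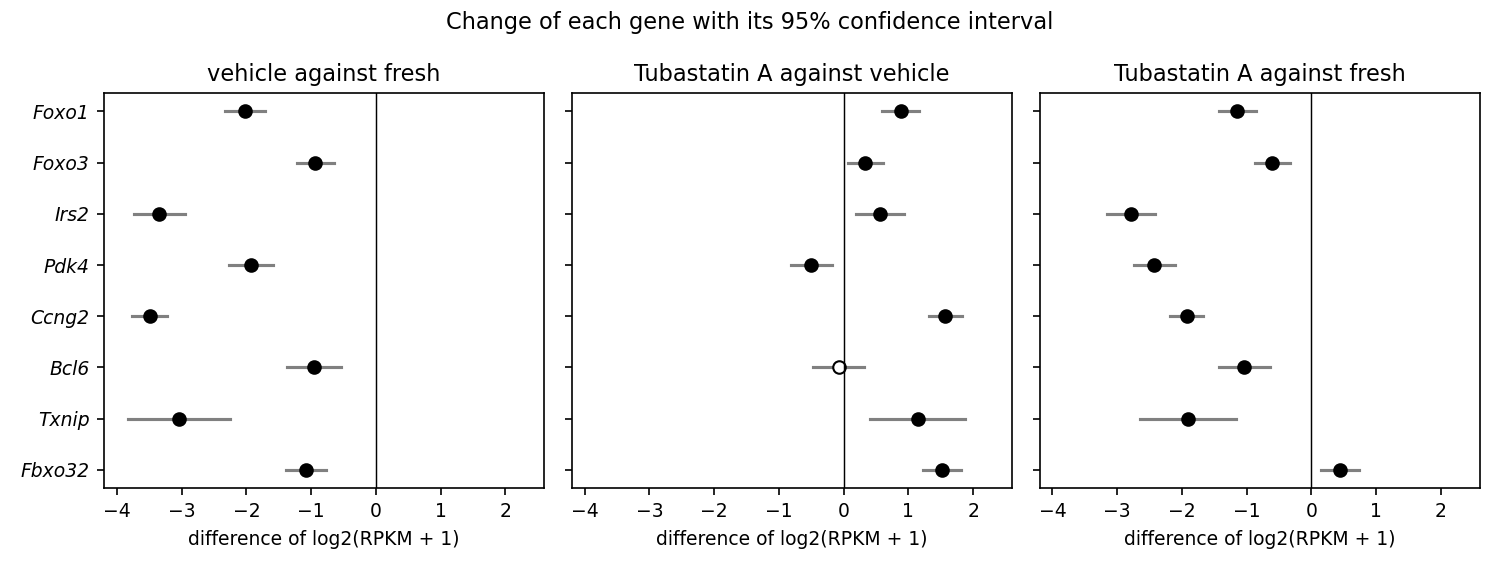
Change of the 8 genes in each comparison as a difference of log2(RPKM + 1) (points, filled where the adjusted p is under 0.05) with its 95% confidence interval (lines). All 8 lie left of 0 in vehicle against fresh, while with Tubastatin A against vehicle only Pdk4 is called lower and Bcl6, at -0.08, is unfilled.

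The order of levels changed with culture. In fresh cells it ran from Pdk4 through Irs2, Txnip and Ccng2 to Foxo1, Bcl6, Foxo3 and Fbxo32. Neighbours from Pdk4 to Ccng2 overlapped in their libraries, as did Foxo1 and Bcl6. In vehicle Pdk4 was followed by Irs2, Bcl6 and Txnip, which overlapped, and Ccng2 (3.50 ± 0.349 RPKM) stood below Foxo1 (4.32 ± 0.196 RPKM). With Tubastatin A the order was Pdk4 (25.2 ± 3.51 RPKM), Txnip (21.3 ± 4.60), Irs2 (15.9 ± 1.95) and Ccng2 (12.4 ± 1.62), each overlapping the next, then Foxo1 and Bcl6, which overlapped, then Foxo3 and Fbxo32 (SD, n = 4).

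Genes that act upstream of FoxO proteins, in the insulin and PI3-kinase pathway, moved in both directions. Of 24 measured genes of a list of 26, 3 rose and 10 fell in vehicle against fresh, with a median of -0.30, but 9 rose and 6 fell when scaled by reads in the table. With Tubastatin A against vehicle 9 rose and 4 fell, with a median of 0.17, and 7 rose and 6 fell against fresh cells, or 14 and 5 when scaled by reads in the table. Beside these counts and those of the lists that follow, 32.0% of all genes rose and 35.0% fell in vehicle against fresh. With Tubastatin A these shares were 29.6% and 29.7% against vehicle, and 29.8% and 35.2% against fresh cells. Akt1, the AKT kinase with the highest level here, stood at 102.5 ± 5.75 RPKM in fresh, 227.2 ± 8.06 RPKM in vehicle and 117.2 ± 4.24 RPKM in Tubastatin A cells. It rose by 1.14 in vehicle (adjusted p = 2.5e-06) and fell by 0.95 with Tubastatin A against vehicle (adjusted p = 1.1e-05). Akt2, the isoform of insulin-driven glucose uptake, fell with a log2 change of -1.98 in vehicle and did not pass between the cultures (adjusted p = 0.60). Sgk1, a kinase that phosphorylates FoxO proteins as AKT does, fell from 460.0 ± 62.3 RPKM in fresh to 34.5 ± 2.30 RPKM in vehicle cells and was 48.9 ± 8.27 RPKM with Tubastatin A. Pik3ip1, an inhibitor of PI3-kinase, fell with a log2 change of -2.41 in vehicle and rose by 1.09 with Tubastatin A. Pik3cb, a catalytic subunit of PI3-kinase, rose by 2.40 in vehicle and fell by 0.52 with Tubastatin A, and Pik3cd, another, rose by 0.73 with Tubastatin A. Igf1, a growth factor that activates this pathway, fell from 11.3 ± 3.37 RPKM in fresh to 0.327 ± 0.0377 RPKM in vehicle cells.

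Enzymes and partners that act on FoxO proteins were mixed as well. Of 27 genes 9 rose and 10 fell in vehicle against fresh (15 and 4 when scaled by reads in the table), and 6 rose and 9 fell with Tubastatin A against vehicle. Against fresh cells 7 rose and 12 fell with Tubastatin A, or 15 and 5 by that other scale. Skp2, a ubiquitin ligase subunit that targets FOXO1 for breakdown, rose from 1.60 ± 0.812 to 8.98 ± 0.939 RPKM in vehicle and was 1.37 ± 0.272 RPKM with Tubastatin A, a fall of 2.08 on the log2 scale against vehicle. Cdk2, a cell cycle kinase that also phosphorylates FOXO1, rose by 0.79 in vehicle and fell by 2.51 with Tubastatin A. Sirt2, a deacetylase of FoxO proteins and of tubulin, fell from 68.3 ± 6.49 to 14.9 ± 1.72 RPKM in vehicle and rose to 35.4 ± 2.08 RPKM with Tubastatin A. Sfn, the 14-3-3 protein sigma, fell from 2.04 ± 0.0814 to 0.519 ± 0.0663 RPKM in vehicle and rose by 1.54 with Tubastatin A, whereas the 14-3-3 gene Ywhaz fell by 0.50 with Tubastatin A against vehicle. Hdac4, a class II deacetylase, fell with a log2 change of -1.87 in vehicle and rose by 0.62 with Tubastatin A, and Kat2b, an acetyltransferase, fell with a log2 change of -1.50 in vehicle.

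Other known FoxO targets of the atrophy and autophagy programme did as most of the 8 genes did. Of 20 genes 15 fell and 2 rose in vehicle against fresh (12 and 4 when scaled by reads in the table), with a median of -1.17, and 15 rose and 1 fell with Tubastatin A against vehicle, with a median of 0.79. Against fresh cells 5 rose and 11 fell, and 8 and 8 when scaled by reads in the table. Pink1, a kinase that marks damaged mitochondria, stood at 195.2 ± 6.10 RPKM in fresh, 15.6 ± 0.787 RPKM in vehicle and 92.4 ± 8.02 RPKM in Tubastatin A cells. Gabarapl1, a protein of the autophagosome membrane, stood at 239.0 ± 67.5, 33.5 ± 4.55 and 245.4 ± 12.4 RPKM in the same order, and it rose by 2.84 with Tubastatin A against vehicle. Atg14, a subunit of the PI3-kinase of autophagy, rose by 1.56 with Tubastatin A against vehicle, and Bnip3l, a mitophagy receptor, by 1.32. Both were also higher than in fresh cells, by 0.77 and 0.78. Zfand5, Fbxo30 and Sesn2 fell with log2 changes of -2.97, -2.84 and -2.41 in vehicle and rose by 1.39, 0.65 and 0.56 with Tubastatin A.

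Targets of the cell cycle split. The list of 15 genes was not divided by whether FoxO factors switch them on or off. Of these genes 4 rose and 11 fell in vehicle against fresh, with a median of -1.07. With Tubastatin A against vehicle 6 rose and 6 fell, with a median of -0.20. Against fresh cells 1 rose and 10 fell with Tubastatin A, or 4 and 10 when scaled by reads in the table. Gadd45a, a stress gene that halts the cycle, stood at 282.5 ± 35.8 RPKM in fresh, 11.2 ± 1.42 RPKM in vehicle and 124.0 ± 16.0 RPKM in Tubastatin A cells, and it rose by 3.35 between the cultures. Cdkn2d, an inhibitor of cyclin-dependent kinases, fell by 2.63 in vehicle and rose by 1.04 with Tubastatin A. Ccnd1, cyclin D1 of cell cycle entry, and Ccnb1, cyclin B1 of mitosis, fell with log2 changes of -3.94 and -3.49 with Tubastatin A against vehicle. Klf2, a factor of quiescence in lymphocytes and blood vessels, fell at both steps, from 40.6 ± 4.91 to 12.3 ± 1.90 and 1.55 ± 0.111 RPKM. Btg1, an antiproliferative gene, fell by 3.16 in vehicle and did not pass between the cultures (adjusted p = 0.17), and Klf4, a factor of arrest, fell with a log2 change of -3.89 in vehicle.

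Of 19 measured targets (of 24 listed) in metabolism, oxidative defence and cell death, 3 rose and 10 fell in vehicle against fresh (5 and 8 when scaled by reads in the table), and 11 rose and 4 fell with Tubastatin A against vehicle, with a median of 0.53. Against fresh cells 5 rose and 8 fell, or 9 and 5 when scaled by reads in the table. Arrdc4 and Arrdc3, arrestin relatives of Txnip, fell with log2 changes of -1.37 and -3.27 in vehicle and rose by 1.05 and 1.03 with Tubastatin A. Mlxipl, the glucose-sensing factor that also acts on Txnip, fell from 4.44 ± 1.24 to 0.534 ± 0.145 RPKM and was 1.24 ± 0.152 RPKM with Tubastatin A. Cat, the catalase that breaks down hydrogen peroxide, rose at both steps, from 46.4 ± 3.26 to 60.4 ± 3.12 and 136.1 ± 9.82 RPKM. Gpx1, another peroxidase, rose by 1.84 in vehicle and fell by 1.65 with Tubastatin A. Lpin1, an enzyme of lipid synthesis, rose by 1.33 with Tubastatin A, and Lpl, a lipase, fell in vehicle with a log2 change of -2.11. Pmaip1, a death gene of the BCL2 family, fell with a log2 change of -3.27 in vehicle and rose by 0.81 with Tubastatin A.

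**Figure D4:**
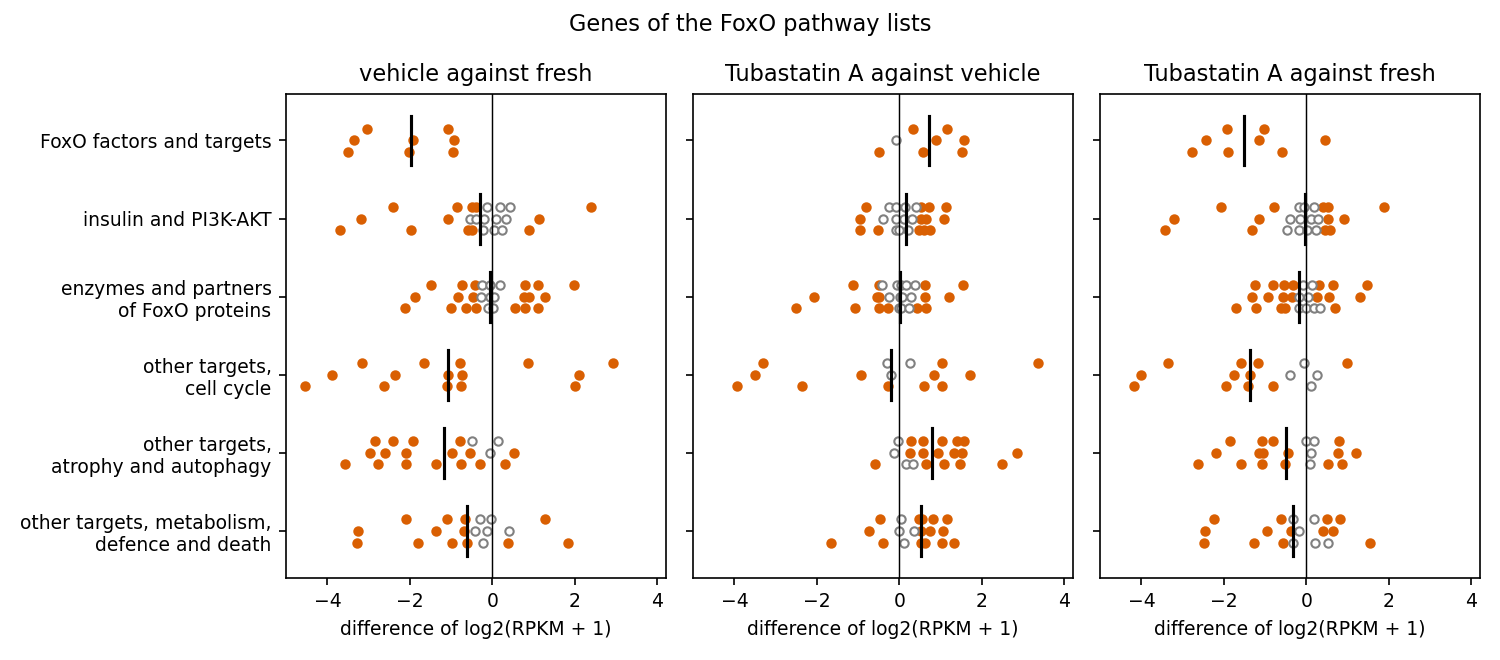
Change of each gene in 6 gene lists (rows) for the 3 comparisons (panels), as a difference of log2(RPKM + 1); filled points have an adjusted p under 0.05, and black bars are list medians. In the middle panel the medians of the atrophy and autophagy targets, at 0.79, and of the 8 genes, at 0.72, lie farthest right.

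Markers of other cells and of stress moved with some of these results. In vehicle against fresh 10 of 10 endothelial, 6 of 7 fibro-adipogenic, 6 of 8 pericyte and smooth muscle, 3 of 3 measured immune, 7 of 13 measured muscle fibre and 12 of 12 immediate early markers fell together with the 8 FoxO genes, and their part in those falls was not tested. Between the cultures 1 of 10 endothelial markers rose and 1 fell, and 1 of 13 measured muscle fibre markers rose and 1 fell. Of 7 fibro-adipogenic and of 8 pericyte markers 1 rose and 2 fell in each list, 1 of 3 immune markers rose, and 9 of 12 immediate early genes rose. Their part in the rise of the 6 FoxO genes was not tested either. Of the 10 muscle stem cell markers, 9 fell in vehicle, and with Tubastatin A against vehicle 3 rose and 6 fell.

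Across the 10 libraries the patterns of most of the 8 genes resembled each other, as a description of libraries that fall into 3 groups and share their scaling. Foxo1 and Ccng2 had a Pearson r of 0.98 on the log2(RPKM + 1) scale, Foxo3 and Txnip 0.98, and Foxo1 and Foxo3 0.98, whereas Fbxo32 had an r of -0.05 with Pdk4 and 0.08 with Bcl6. Among all other genes with a mean of at least 2 on this scale, those most like Foxo1 were Gramd1a and Tfeb, a factor of lysosome genes, both at 0.99 or above. Gramd1a stood at 30.7 ± 5.13 RPKM in fresh cells, 6.22 ± 0.292 RPKM with vehicle and 12.7 ± 1.07 RPKM with Tubastatin A. Ccng2 was most like Mafk and Selenop, and Foxo3 was most like Grasp and Thra, a thyroid hormone receptor. The gene nearest to Irs2 was Heyl, a repressor induced by Notch, and Abca8a was next. Pdk4 was most like Erfe and Sox9, whose means were likewise lower with Tubastatin A than with vehicle, at 2.51 ± 0.166 against 8.84 ± 1.17 RPKM for Erfe and 18.1 ± 1.05 against 27.6 ± 0.807 RPKM for Sox9. Bcl6 was most like Calu and Myo1e, and Txnip most like Tob2 and Garem1. Fbxo32 was most like Klhl36 and Phf1, at 7.69 ± 2.14 and 7.81 ± 1.34 RPKM in fresh, 2.56 ± 0.269 and 2.36 ± 0.387 RPKM in vehicle, and 11.5 ± 1.38 and 10.2 ± 0.866 RPKM in Tubastatin A cells.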

How the data were processed

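Per the labels' protocols, the 10 libraries of sorted mouse muscle stem cells started from 5 ng RNA each (SMART-Seq v4 for cDNA, then the NuGEN Ovation kit) and were sequenced with paired 150 bp reads. The submitters' processing notes name the tools STAR, Trim Galore, Subread with featureCounts, and edgeR, and mm10 as build; versions and settings are not given in the sources used here, nor is the filter that left 12803 genes. The deposited values are RPKM as computed by the authors. Multiplied by union exon lengths of GENCODE M21 (12682 symbols matched) and 1 factor per library, they came out as whole numbers (tolerance 0.05 reads) in all libraries for 11648 genes (91.0%), among them all 8 described here.

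The 3 groups entered 1 limma model (version 3.58.1, R 4.3.3) with a variance trend, on log2(RPKM + 1) of every gene, without a filter on low values. P-values are two-sided and adjusted by Benjamini-Hochberg over 12803 genes. The fit was tested on simulated data. Alternatives were pseudocounts of 0.1 and 5 RPKM, a filter, 4 scalings, voom on recovered reads, fits on only the groups compared, a replicate block and each library left out. Python 3.11.15 read the tables and drew the figures.

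The FoxO genes and the gene lists were chosen with earlier results of these data known. From each list the text names up to 4 genes of lowest p per comparison, and for each FoxO gene the 2 genes with the highest Pearson r. A gene named by this rule is not reported here. Gene positions are from GENCODE M21 (GRCm38) and promoter sequences from RefSeq (GRCm38.p6). The use of strand in counting is not given, so reads of overlapping genes may not be separable.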

Additional observations from a re-analysis of the deposited data

Results flagged for a closer look

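Ccng2 was flagged in Tubastatin A cells because replicate 4, at 14.8 RPKM, lay far above the other 3 libraries, which were at 11.4 to 11.9 RPKM; the gap made up 0.846 of the range of the group. Of the groups of this size, 9 were looked at (the 8 FoxO genes and Foxo6), and chance flags about 1 in 20.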

How the results depend on the processing

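Over 20 alternative settings, 480 values of the 8 genes in 3 comparisons were recomputed: 460 kept their direction and their side of the threshold, 17 kept their direction but no longer passed, and 3 changed sign. Some settings leave a log2 change as it was and can move only its adjusted p. These are the filter, fits on only the groups compared, and leaving out a library of the group not compared. In vehicle against fresh the replicate block is another. The changes of sign were all for Bcl6 in Tubastatin A against vehicle, which passed in no setting: 0.030 with equal sums of RPKM, 0.025 with upper quartile scaling and 0.033 without Tubastatin A replicate 3, with a range of -0.16 to 0.033 over the libraries left out in turn. With each library left out in turn, all 8 genes were called in vehicle against fresh, 5 to 7 in Tubastatin A against vehicle and 7 to 8 in Tubastatin A against fresh; over all genes 7868 to 8912, 6588 to 8341 and 7768 to 8540 were called. Without vehicle replicate 1, Foxo3 and Irs2 both no longer passed between the cultures. The sources used here give no pairing of same-numbered libraries, and whether they share more than a number was not tested. Of 9 such pairs 5 had a correlation of their deviations from the group means over 0.1, from -0.19 to 0.39. Pairs with different numbers ran from -0.52 to 0.47. With a replicate block 8, 6 and 8 of the 8 genes and 8503, 7136 and 7888 of all genes were called. Foxo3 between the cultures was the only call lost among the 8. Only Tubastatin A has a replicate 4, so the block takes up that library. Its log2 changes are those without Tubastatin A replicate 4, and it is not a separate check of pairing on all libraries. What else caused calls or signs to change in these settings was not tested. Fbxo32 in vehicle, at 41 to 74 reads, is the level that depth limits most.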
